A study of Mus musculus with 18 samples.

Results

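Heat shock proteins and their J-domain partners were followed in right kidneys of male C57BL/6 mice that had or had not been defeated by an aggressive CD-1 mouse. The members were the genes whose symbols mark them as HSP70, HSP110, HSP90, HSP60/HSP10, small heat shock protein, DNAJA, DNAJB or DNAJC genes, which gave 71 of the 32675 genes in the expression table. By family these were 12 HSP70, 3 HSP110, 3 HSP90, 2 HSP60/HSP10, 7 small heat shock protein, 4 DNAJA, 13 DNAJB and 27 DNAJC genes. Symbols ending in -ps were left out, and 1 pseudogene row, Hspa9-ps1, stayed in because its symbol ends differently. A symbol does not guarantee a chaperone: Hspb11, for one, encodes a protein of intraflagellar transport. All mice were wild-type and 6 weeks old according to the labels. By the study's methods this was the age when they were obtained, and 7 days of adaptation and the experiment followed before kidneys were taken. The 6 Ctrl mice were handled daily and not defeated. The PBS and FLX groups, of 6 mice each, were defeated for 10 min a day on 14 days (chronic social defeat stress, CSDS) and were injected daily with phosphate-buffered saline or with fluoxetine, a serotonin reuptake inhibitor, at 10 mg per kg. No undefeated mice that received fluoxetine were analysed, and no injection of Ctrl mice is described, so that defeat and injection cannot be told apart in PBS against Ctrl.

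The study left out 1 PBS mouse for an excess of inflammatory transcripts without naming it. PBS replicate 6 was taken as that mouse, because it had 22.1 FPKM of S100a8 against 1.82 to 7.65 in the other 5 PBS mice and 49.2 FPKM of Lcn2 against 0.985 to 4.42. Tests were therefore made on 17 mice, and values over all 6 PBS mice are given beside many of them. Where they are not given, as for most genes outside the members, a call holds for the fit on 17 mice. FPKM is fragments per kilobase of transcript, scaled to the mapped fragments of a library, a level scaled by gene length. Total counts were 72149987 to 79061296 in 14 mice and 48928823 to 52073640 in FLX replicates 3 to 6. Kidney epithelial transcripts, from Lrp2 of the proximal tubule to Aqp2 of the collecting duct, summed to between 1947 and 2583 FPKM in every mouse over 9 genes. Umod alone had 695 to 1259 FPKM, so the sum says little about single segments. Lrp2 went from 35.9 FPKM, in PBS replicate 6, to 93.7. No gene of that list passed the test in any comparison. Because whole kidney was sequenced, fewer cells of a type and less RNA per cell cannot be told apart.

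Chaperones bind unfolded stretches of other proteins and help them fold, refold or be removed. HSP70 proteins do this in cycles driven by ATP. J-domain proteins (DNAJ) bring the client and trigger ATP hydrolysis, HSP110 proteins exchange the nucleotide, and HSP90 takes over clients such as steroid receptors and kinases. When proteins unfold in the cytosol, heat shock factor 1 (Hsf1) binds inverted repeats of the letters GAA upstream of its targets and raises Hspa1a, Hspa1b, Dnajb1 and Hsph1, whereas the endoplasmic reticulum and the mitochondrion answer with chaperone sets of their own. In the kidney these proteins are known from tubules recovering from ischaemia or toxins.

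Promoter windows of 5 members are shown because they hold pairs of the inverted repeat that heat shock factors recognise. They were read 5′ to 3′ on the strand of the gene from the RefSeq promoters of GRCm38.p6, and capitals mark GAANNTTC or TTCNNGAA, with overlapping matches run together.
Hspa1a, chr17:34972217-34972286, minus strand: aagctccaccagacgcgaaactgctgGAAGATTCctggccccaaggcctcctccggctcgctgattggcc
Hspa1b, chr17:34959299-34959368, minus strand: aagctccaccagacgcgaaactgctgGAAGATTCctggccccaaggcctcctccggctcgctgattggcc
Hsph1, chr5:149636351-149636380, minus strand: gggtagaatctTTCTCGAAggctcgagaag
Hspb1, chr5:135887794-135887843, plus strand: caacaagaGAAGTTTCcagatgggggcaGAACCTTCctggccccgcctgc
Hspe1, chr1:55088048-55088087, plus strand: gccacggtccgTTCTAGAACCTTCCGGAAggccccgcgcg

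The windows of Hspa1a and Hspa1b were identical at 70 of 70 positions. That of Hspe1 holds 3 overlapping pairs and lies before the RefSeq starts of both Hspe1 and Hspd1, which are transcribed away from each other, although the gene spans in the expression table overlap there. Both motifs read the same on either strand and may overlap. Within 250 bases before to 50 bases after the start, 1 or both motifs occurred at 17% of 27025 genes with a promoter in the table and at 14 of the 56 members with one (25%). In the heat-inducible cytosolic list, 14 members known from textbooks as targets of the heat shock response in the cytosol or as their close partners, 7 of 11 members with a promoter held a motif (63.6%), against 7 of 45 other members (15.6%). The list holds known targets of the factor that binds these repeats. It was also drawn up with earlier results of these data known, so these shares describe the list and test nothing. A match describes the letters in this window and is not a measured binding site.

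In Ctrl kidneys the members spanned a wide range of levels. Of the 71, 5 had a mean of at least 100 FPKM, 19 lay at 10 to 100, 37 at 1 to 10 and 10 below 1. Hspa8, the constitutive cytosolic HSP70, stood first at 312 ± 23.8 FPKM (SD, n = 6), next to Hsp90ab1, the constitutive cytosolic HSP90, at 297 ± 35.2. Their ranges overlapped, and both lay above every mouse's value of Hspd1, the mitochondrial HSP60, at 178 ± 25.01. Hspa9, the mitochondrial HSP70, and Hspe1, the lid of the HSP60 chamber, followed at 139 ± 8.33 and 130 ± 30.1. The endoplasmic reticulum pair Hsp90b1 and Hspa5 came next at 88.9 ± 14.4 and 83.0 ± 20.2, then the inducible HSP90 Hsp90aa1 at 67.3 ± 13.6. From Hspd1 down to Dnaja2 each overlapped its neighbour in this order. Dnajc12, a J protein that assists the folding of aromatic amino acid hydroxylases, at 49.5 ± 3.38 FPKM, and Dnajc22, a membrane J protein, at 42.1 ± 4.48, were the highest DNAJC members. Against these levels the inducible HSP70 genes were low, Hspa1a at 2.97 ± 1.38 and Hspa1b at 4.65 ± 3.21 FPKM.

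**Figure D1:**
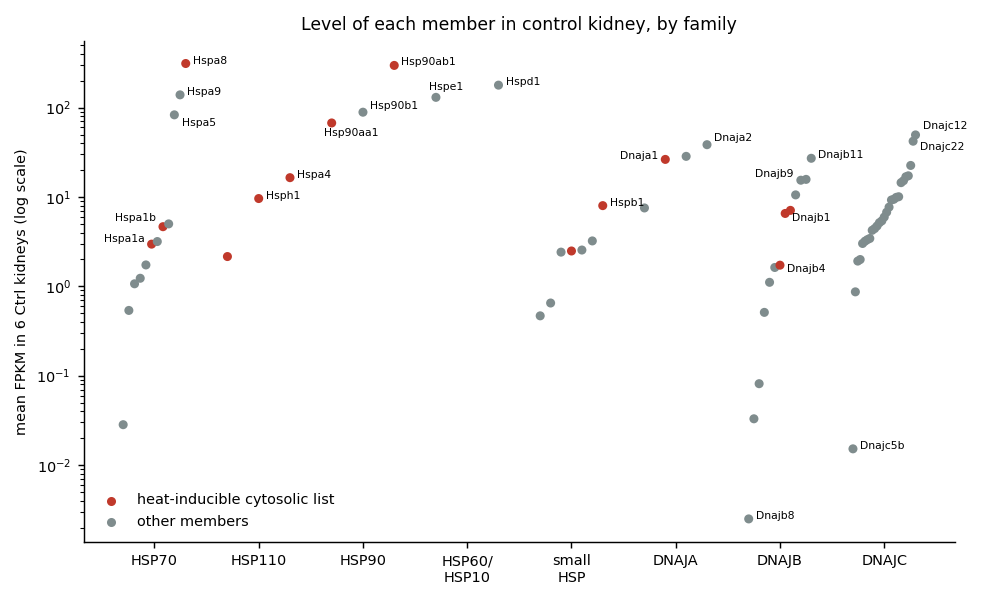
Mean FPKM of each of the 71 members in the 6 Ctrl kidneys on a log scale, 1 point per gene, grouped by family, with members of the heat-inducible cytosolic list in red. Hspa8 and Hsp90ab1 stand highest at 312 and 297 FPKM, and Hspa1a and Hspa1b lie near the middle at 2.97 and 4.65 FPKM.

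Counts of 67 members passed the filter on low counts. Dnajb7, Dnajb8, Dnajc5b and Hspa9-ps1 did not and were listed at 0 in some mice of every group. Groups were compared with edgeR's quasi-likelihood test, and a member was called at an adjusted p under 0.05 over all 20251 genes tested. In PBS against Ctrl 9 members were called, 7 higher and 2 lower, where 3.81% of all tested genes were called (2.14% higher and 1.67% lower). The 7 higher members were Hspa1a, Hspa1b, Dnajb1, Dnajb4, Hsph1, Hspa2 and Dnajb9, and the 2 lower ones Dnajc12 and Dnajc22. With all 6 PBS mice 9 members were called as well where 4.28% of all genes were. Of these, 8 were shared, Hsph1 was not called (adjusted p = 0.0906) and Hspb1 was (adjusted p = 0.0405). The 5 PBS mice lay entirely above the Ctrl mice for 6 members (1.77% of all genes) and entirely below for 1 (1.75%). An unadjusted p under 0.05 was reached by 23 members (17.9% of all genes).

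In FLX against PBS none of the 67 members was called by edgeR, where 0.726% of all tested genes were. The unadjusted p was under 0.05 for 5 members, among 11.1% of all genes, and no member was called by edgeR with all 6 PBS mice (0.557% of all genes) either. DESeq2 called 1, Dnajb9 (adjusted p = 0.016), and it called more of all genes than edgeR did, as given below. Log2 fold changes went from -0.87 for Dnajb13, a low J protein, to 0.55 for Dnajb3, followed by 0.34 for Hspa12b, an HSP70 relative of endothelium. All 6 endothelial marker genes also lay above 0 in FLX against PBS (median 0.28, none called), and they summed to 32.8 to 48.6 FPKM in FLX, 21.8 to 42.4 in PBS and 24.7 to 36.5 in Ctrl mice. Their part in the value of Hspa12b was not tested. In FLX against Ctrl 8 members were called, where 3.67% of all tested genes were (2.08% higher and 1.59% lower). FLX mice lay entirely above Ctrl mice for 9 members (2.67% of all genes) and entirely below for 1 (0.731%), and 26 members had an unadjusted p under 0.05 (20.4%). They lay above the PBS mice for 2, Dnajc2 and Dnajc22 (2.45%). Hspa1a, Hspa1b, Hsph1, Dnajb4, Dnajb2 and Hspa4 were higher, and Dnajc12 and Dnajc19 lower. With 1 mouse left out the number went from 1 to 18, while the calls among all genes went from 271 to 3099. Without Ctrl replicate 2, Ctrl replicate 5 or FLX replicate 5 the number was 1, Dnajc12. Of 17 such fits the call was lost in 3 for Hspa1a, 4 for Dnajb4, 5 for Hsph1, 7 for Dnajb2, 8 for Hspa1b and 10 for Hspa4. With all 6 PBS mice in the model, where 19946 genes were tested, Hspa1a, Dnajb4 and Dnajc12 were called where 1.77% of all genes were. PBS against Ctrl and FLX against Ctrl share their 6 Ctrl mice, so that the 5 members called in both (Hspa1a, Hspa1b, Hsph1, Dnajb4 and Dnajc12) are not 2 independent observations.

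At the rule that the study used for changed genes, an unadjusted p under 0.05 with an absolute log2 fold change over 1, 6 members passed in PBS against Ctrl, all of them higher (3.28% of all tested genes passed in either direction). They were Hspa1a, Hspa1b, Dnajb1, Dnajb4, Hspb1 and Hsph1, all of the heat-inducible cytosolic list. None passed in FLX against PBS (1.9% of all genes), and 2 passed in FLX against Ctrl (2.24%), Hspa1a and Hspa1b.

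All 14 heat-inducible cytosolic members had a log2 fold change above 0 in PBS against Ctrl, where 48.9% of all tested genes did. Of these members 5 were called higher and none lower, where 2.14% and 1.67% of all genes were. Although named for its inducible members, the list also holds the constitutive Hspa8 and Hsp90ab1, which were not called. The list was drawn up with earlier results of these data known, so its counts and medians describe it and do not test a shared rise. The median of the list was 0.73 on the log2 scale against -0.01 for all tested genes. In FLX against Ctrl 14 of 14 again lay above 0, where 48.8% of all genes did. Here 6 were called higher (2.08% of all genes), and the median was 0.64 against -0.01. In FLX against PBS the list had a median of -0.09 and 4 of 14 lay above 0 (49.5% of all genes). The 53 tested members outside this list had medians of 0.02, -0.03 and 0.02 in PBS against Ctrl, FLX against PBS and FLX against Ctrl. The lists overlapped gene by gene, with 0.28 to 2.13 in the cytosolic list against up to 0.77 outside it in PBS against Ctrl, and the difference between the lists was not tested.

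**Figure D2:**
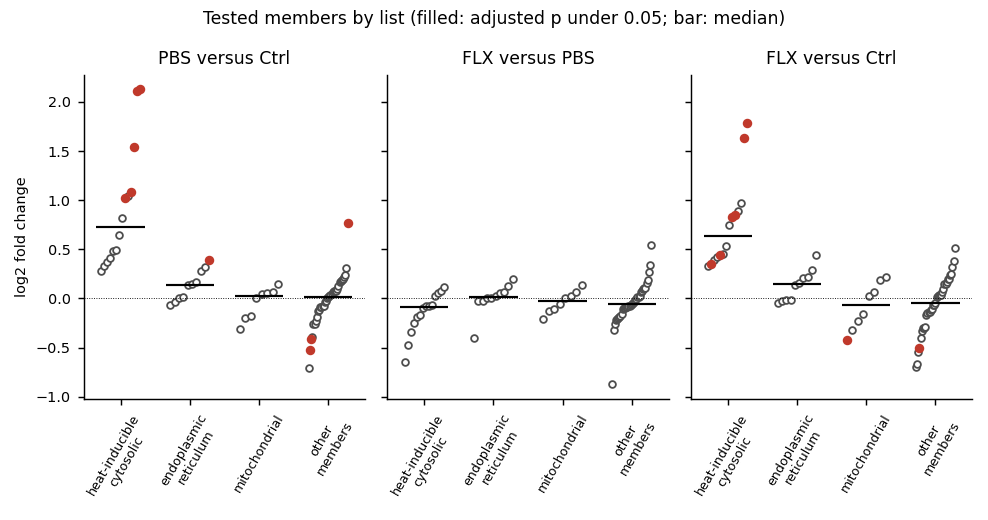
Log2 fold change of the 67 tested members in the 3 comparisons, 1 point per gene, split into the heat-inducible cytosolic, endoplasmic reticulum and mitochondrial lists and all other members. Filled points had an adjusted p under 0.05 and bars are medians, which for the heat-inducible list were 0.73, -0.09 and 0.64 from left to right.

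The inducible HSP70 genes Hspa1a (ENSMUSG00000091971, chr17:34969190-34972156) and Hspa1b (ENSMUSG00000090877, chr17:34956436-34959238) had the highest log2 fold changes of all members in both comparisons with Ctrl. They lie side by side, and their coding sequences matched at 1915 of 1926 aligned positions (99.4%) with an identical run of 638 bases, so that the split of reads between them is uncertain. Hspa1a had 1.84 to 5.62 FPKM in Ctrl mice (median 2.66). PBS replicates 1 to 5 had 24.9, 6.08, 3.30, 16.03 and 13.3 FPKM, the left-out mouse 4.58, and FLX mice 6.50 to 16.2 (median 9.45). PBS replicate 3 and the left-out mouse lay within the Ctrl range, and all 6 FLX mice lay above it. Hspa1a rose by a log2 fold change of 2.13 in PBS against Ctrl (adjusted p = 0.00706, standard error 0.41, edgeR) and by 1.78 in FLX against Ctrl (adjusted p = 0.020, standard error 0.40). With all 6 PBS mice these were 1.96 (adjusted p = 0.015) and 1.78 (adjusted p = 0.0394). FLX against PBS gave -0.35, with a 95% interval from -1.18 to 0.49 that includes 0.

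Hspa1b followed the same order. Ctrl mice had 2.22 to 10.9 FPKM (median 3.54), PBS replicates 1 to 5 had 34.7, 10.7, 5.12, 23.4 and 24.7, the left-out mouse 5.66, and FLX mice 7.59 to 21.7 (median 14.8). Ctrl replicate 4, at 10.9, reached into both defeated groups, and it was also the highest Ctrl mouse for Hspa1a. The log2 fold change was 2.11 in PBS against Ctrl (adjusted p = 0.0124, edgeR) and 1.63 in FLX against Ctrl (adjusted p = 0.0409), and 1.92 (adjusted p = 0.0251) and 1.63 (adjusted p = 0.0747) with all 6 PBS mice.

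J-domain partners of cytosolic HSP70 were called as well. Dnajb1, the main stress-induced one, had 5.54 to 7.27 FPKM in Ctrl mice (median 6.59). PBS replicates 1 to 5 had 36.7, 11.9, 8.66, 25.2 and 11.1 FPKM, the left-out mouse 8.07, and FLX mice 8.61 to 17.2 (median 12.2). Every defeated mouse, with or without fluoxetine and the left-out mouse included, lay above every Ctrl mouse. Dnajb1 rose, with a log2 fold change of 1.54 for PBS against Ctrl (adjusted p = 0.00773, standard error 0.30, edgeR; 1.39 and 0.0193 with all 6 PBS mice). In FLX against Ctrl the log2 fold change was 0.89 with an adjusted p of 0.0897, although the groups did not overlap (exact two-sided permutation p = 0.00216, the smallest that 6 against 6 mice can give). FLX against PBS gave -0.65 (95% interval -1.27 to -0.02, adjusted p = 0.427).

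Dnajb4, a related J protein, had 1.38 to 2.22 FPKM in Ctrl mice (median 1.63), 5.26, 2.31, 2.17, 4.89 and 3.33 in PBS replicates 1 to 5, 2.79 in the left-out mouse and 2.90 to 3.79 in FLX mice (median 3.21). Only PBS replicate 3 fell within the Ctrl range, below its highest mouse. The log2 fold change was 1.08 in PBS against Ctrl (adjusted p = 0.00484, edgeR) and 0.83 in FLX against Ctrl (adjusted p = 0.0239). Dnajb2, a J protein with a known role in neurons, was called in FLX against Ctrl (log2 fold change 0.44, adjusted p = 0.0345; 0.0738 with all 6 PBS mice). Its FPKM went from 6.47 to 7.65 in Ctrl mice and from 8.21 to 13.3 in FLX mice, without overlap. The 5 PBS mice, at 7.81 to 10.6 FPKM, also lay above every Ctrl mouse, and the left-out mouse had 6.53. With all 6 PBS mice the log2 fold change of Dnajb2 was 0.29 in PBS against Ctrl (adjusted p = 0.202, edgeR). FLX against PBS then gave 0.15 (adjusted p = 0.699). Dnaja1, another partner of cytosolic HSP70, had log2 fold changes of 0.64 (adjusted p = 0.137) and 0.45 (adjusted p = 0.255) in PBS and FLX against Ctrl and was not called.

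Among the HSP110 exchange factors, Hsph1 had 6.63 to 12.6 FPKM in Ctrl mice (median 8.92) and 20.5, 20.9, 10.2, 20.8 and 24.2 in PBS replicates 1 to 5. FLX mice had 13.9 to 25.4 FPKM (median 16.7), all above the Ctrl mice. The left-out mouse had 5.82 FPKM, below every Ctrl mouse. Hsph1 rose, with a log2 fold change of 1.02 for PBS against Ctrl (adjusted p = 0.0102, edgeR) and 0.85 for FLX against Ctrl (adjusted p = 0.0273). With all 6 PBS mice neither was called (0.84 with adjusted p = 0.0906, and 0.85 with adjusted p = 0.113). Hspa4 had 14.01 to 19.8 FPKM in Ctrl mice, 18.7 to 22.05 in the 5 PBS mice and 17.8 to 24.9 in FLX mice, with overlap. It was called in FLX against Ctrl (log2 fold change 0.36, adjusted p = 0.0332, or 0.0546 with all 6 PBS mice) and missed the threshold in PBS against Ctrl (0.33, adjusted p = 0.0505). The call in FLX against Ctrl was lost in 10 of 17 fits with 1 mouse left out. Hspa4l, the third member of the family, was called in neither (0.49 with adjusted p = 0.0823, and 0.39 with adjusted p = 0.141).

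**Figure D3:**
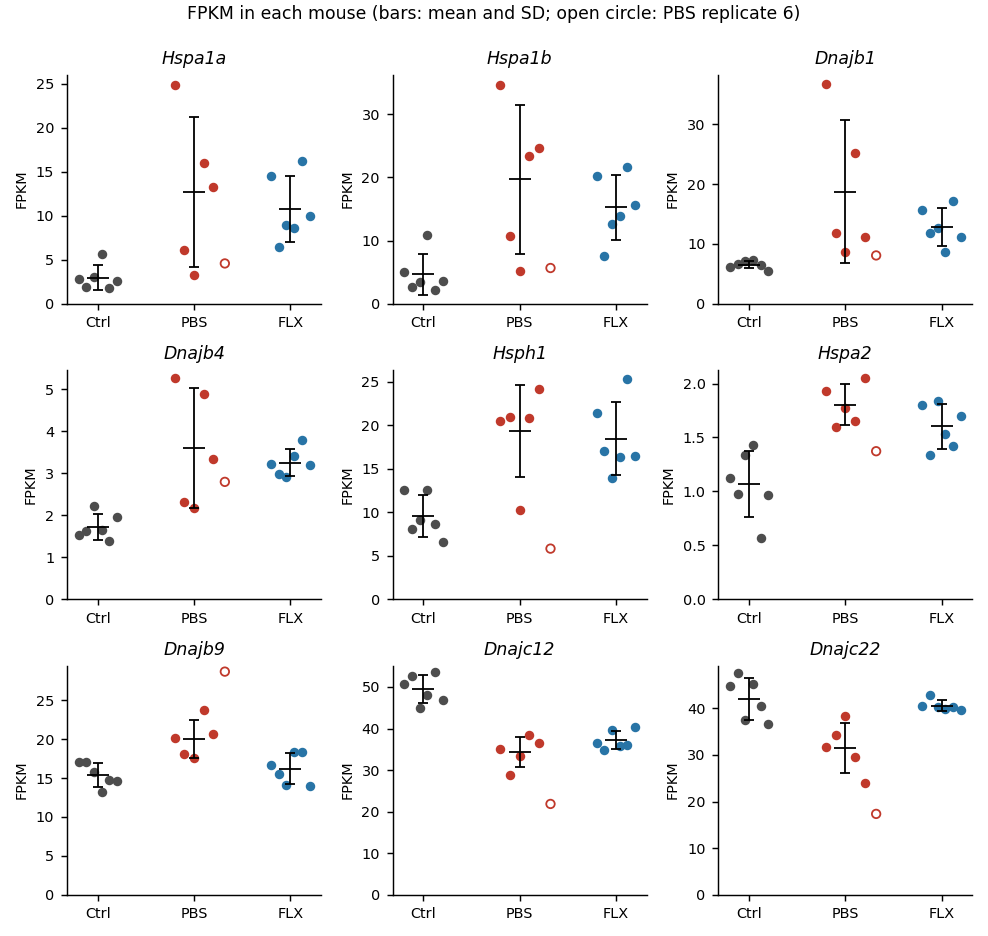
FPKM of the 9 members called in PBS against Ctrl, 1 point per mouse, with the mean and SD of each group over 6 Ctrl, 5 PBS and 6 FLX mice. The open circle is PBS replicate 6. PBS replicates 1 and 4 are the 2 highest points for Dnajb1, while Dnajc12 is below every Ctrl mouse in all defeated mice.

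The abundant cytosolic chaperones Hspa8, Hsp90aa1 and Hsp90ab1 were not called. Hspa8 had 278 to 341 FPKM in Ctrl mice (median 308), 544, 504, 271, 557 and 278 in PBS replicates 1 to 5 and 319 to 587 in FLX mice (median 424). PBS replicates 3 and 5 did not exceed the Ctrl mice. Its log2 fold change was 0.49 in PBS against Ctrl (adjusted p = 0.218, edgeR) and 0.42 in FLX against Ctrl (adjusted p = 0.238). Hsp90aa1 went from 44.6 to 78.1 FPKM in Ctrl mice and from 81.3 to 128 in FLX mice, without overlap, with a log2 fold change of 0.53 and an adjusted p of 0.0741. Hsp90ab1 also did not overlap between FLX and Ctrl mice (0.33, adjusted p = 0.0929). In PBS against Ctrl they had 0.41 (adjusted p = 0.2) and 0.28 (adjusted p = 0.195). No HSP90 member was called by edgeR in any comparison. As a share of summed FPKM, the heat-inducible list took a median of 0.177% in Ctrl mice, 0.267% in the 5 PBS mice and 0.260% in FLX mice. The ranges were 0.145% to 0.198%, 0.173% to 0.312% and 0.208% to 0.335%, and the left-out mouse had 0.189%. PBS and Ctrl mice thus overlapped, and the abundant Hspa8 and Hsp90ab1 count in this sum.

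**Figure D4:**
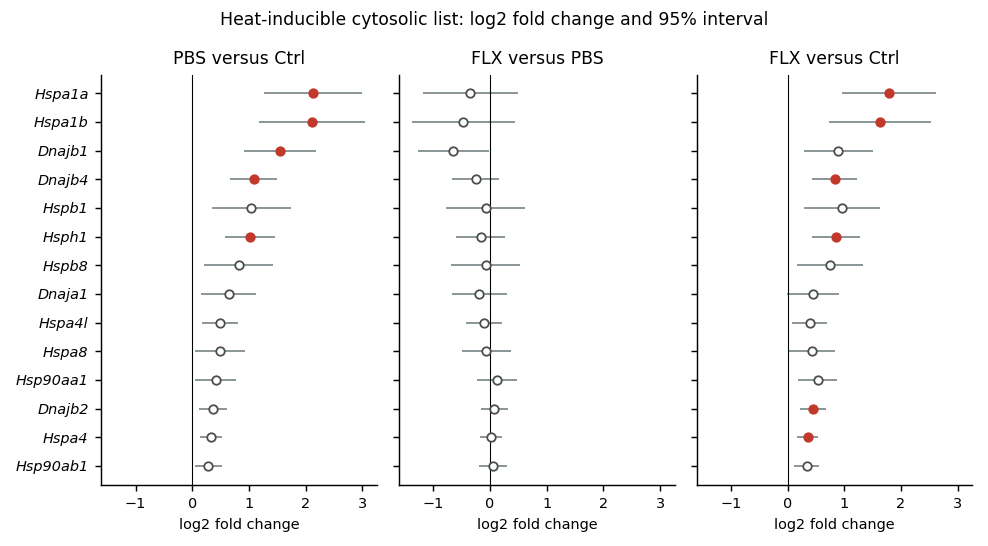
Log2 fold change (points) and 95% interval (lines) of the 14 heat-inducible cytosolic members from the edgeR fit on 17 mice, ordered by PBS against Ctrl, with filled points at an adjusted p under 0.05. All 14 points lie right of 0 in both comparisons with Ctrl, and 4 of 14 in FLX against PBS.

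Hspa2, an HSP70 best known from male germ cells, was low and was called in PBS against Ctrl. It had 0.568 to 1.43 FPKM in Ctrl mice (median 1.05), 1.93, 1.60, 1.78, 1.65 and 2.05 in PBS replicates 1 to 5, 1.37 in the left-out mouse and 1.33 to 1.84 in FLX mice. The 5 PBS mice lay above every Ctrl mouse, and the left-out mouse did not. The log2 fold change was 0.77 (adjusted p = 0.0222, standard error 0.18, edgeR; 0.70 and 0.0311 with all 6 PBS mice), and 0.51 in FLX against Ctrl (adjusted p = 0.104).

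Small heat shock proteins hold unfolded proteins without using ATP. None of the 7 was called in the fit on 17 mice. Hspb1 and Hspb8 were the 2 of 7 with a log2 fold change above 0 in PBS against Ctrl and in FLX against Ctrl, and the median of the family was -0.09 and -0.33. The lowest values of all members in PBS against Ctrl were those of Hspb9 (-0.70, adjusted p = 0.646) and, after Dnajc12 and Dnajc22, Hspb7 (-0.39, adjusted p = 0.483), and neither was called. Hspb1, the best studied of them, had 4.54 to 13.5 FPKM in Ctrl mice (median 7.07), 15.3, 14.7, 9.61, 9.29 and 34.1 in PBS replicates 1 to 5 and 9.11 to 24.8 in FLX mice (median 16.4). The left-out mouse had 37.3 FPKM, the highest of all. Its log2 fold change of 1.04 in PBS against Ctrl had an adjusted p of 0.0911, and with the left-out mouse it was 1.299 with 0.0405. Hspb8, which works with the co-chaperone Bag3, had 0.82 in PBS against Ctrl (adjusted p = 0.133) and 0.74 in FLX against Ctrl (adjusted p = 0.142), and the 5 PBS mice lay above the Ctrl mice. Smooth muscle genes, 6 in all, summed to 38.1 to 62.4 FPKM in Ctrl, 55.4 to 90.3 in PBS and 55.0 to 115 in FLX mice, and their part in the values of Hspb1 and Hspb8 was not tested.

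Chaperones of the endoplasmic reticulum gave 1 call in 10 in PBS against Ctrl, where 3.81% of all genes were called. Dnajb9, a J protein that holds the sensor of unfolded proteins Ern1 in check, had 13.2 to 17.05 FPKM in Ctrl mice (median 15.3), 20.1, 18.05, 17.6, 23.8 and 20.65 in PBS replicates 1 to 5, 28.7 in the left-out mouse and 14.01 to 18.4 in FLX mice (median 16.1). All 6 PBS mice lay above every Ctrl mouse, and FLX mice overlapped both groups. Dnajb9 rose, with a log2 fold change of 0.39 for PBS against Ctrl (adjusted p = 0.0426, standard error 0.10, edgeR; 0.47 and 0.023 with all 6 PBS mice). The call was lost in 7 of 17 fits with 1 mouse left out (adjusted p up to 0.137). It was also lost with no filter on low counts, upper-quartile scaling, a replicate block or only the 2 groups compared. FLX against PBS gave -0.41 (95% interval -0.62 to -0.19, adjusted p = 0.0832), and -0.49 with all 6 PBS mice (adjusted p = 0.0549). FLX against Ctrl gave -0.02 (adjusted p = 0.947). Hspa5 (BiP), the HSP70 of this compartment, had 57.4 to 106 FPKM in Ctrl mice and 58.4 to 155 in the 5 PBS mice, and Hsp90b1, its HSP90, had 69.1 to 106 and 72.2 to 150. Both overlapped in all comparisons and were not called. Dnajc3, a J protein of the lumen, was higher in every FLX than in every Ctrl mouse (log2 fold change 0.21, adjusted p = 0.123, not called). The list's median was 0.14 in PBS against Ctrl and 0.15 in FLX against Ctrl.

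Mitochondrial chaperones gave no call in PBS against Ctrl and 1 of 8 in FLX against Ctrl, where 3.67% of all genes were called. Hspd1, Hspe1 and Hspa9, all with means above 100 FPKM in Ctrl mice, had overlapping groups, with Hspd1 at 144 to 219 FPKM in Ctrl mice, 170 to 208 in the 5 PBS mice and 198 to 244 in FLX mice. Dnajc19, a J protein of the import motor in the inner membrane, fell by 0.43 on the log2 scale in FLX against Ctrl (adjusted p = 0.0423, edgeR; 0.0985 with all 6 PBS mice). It had 12.3 to 19.3 FPKM in Ctrl mice and 11.9 to 14.5 in FLX mice, and Ctrl replicate 3, the lowest Ctrl mouse, lay inside the FLX range. The call was lost in 13 of 17 fits with 1 mouse left out (adjusted p up to 0.107). Dnajc11, a J protein of the mitochondrial membranes, lay above every Ctrl mouse in the 5 PBS mice and in the FLX mice (0.15 and 0.21), and neither was called (adjusted p = 0.255 and 0.0745). The list's medians were 0.03, -0.03 and -0.07 in PBS against Ctrl, FLX against PBS and FLX against Ctrl.

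DNAJC members were the only ones called lower. Dnajc12 had 45.0 to 53.6 FPKM in Ctrl mice (median 49.4), 35.0, 28.7, 33.3, 38.4 and 36.5 in PBS replicates 1 to 5, 21.9 in the left-out mouse and 34.9 to 40.3 in FLX mice (median 36.3). No defeated mouse reached the lowest Ctrl mouse. Dnajc12 fell by 0.52 on the log2 scale in PBS against Ctrl (adjusted p = 0.00328, standard error 0.09, edgeR) and by 0.50 in FLX against Ctrl (adjusted p = 0.00552, standard error 0.09). FLX against PBS gave 0.02 (95% interval -0.17 to 0.21). With all 6 PBS mice the log2 fold changes were -0.62 (adjusted p = 0.00769) and -0.50 (adjusted p = 0.0406).

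Dnajc22 had 36.7 to 47.7 FPKM in Ctrl mice (median 42.6), 31.7, 34.2, 38.5, 29.5 and 24.1 in PBS replicates 1 to 5, 17.4 in the left-out mouse and 39.7 to 42.8 in FLX mice (median 40.3). Every FLX mouse lay above every PBS mouse, and PBS replicate 3 lay inside the Ctrl range. Dnajc22 fell by 0.41 in PBS against Ctrl (log2 fold change -0.41, adjusted p = 0.0375, edgeR; -0.53 and 0.0439 with all 6 PBS mice). The call was lost in 9 of 17 fits with 1 mouse left out (adjusted p up to 0.0927). It was also lost with no filter on low counts, a replicate block or only the 2 groups compared. FLX against PBS gave 0.27 (95% interval 0.05 to 0.49, adjusted p = 0.314; exact permutation p = 0.00216), and in FLX against Ctrl the log2 fold change was -0.14 (adjusted p = 0.46).

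The PBS mice differed widely in their inducible chaperones, and those with the highest values also stood apart in other transcripts. A list of 12 immediate early genes, such as Fos and Egr1, which cells switch on within minutes of a stimulus, summed to 218 FPKM in PBS replicate 1 and 154 in PBS replicate 4, against 35.1 to 81.7 in the other PBS mice and 48.5 to 89.6 in Ctrl mice. PBS replicates 1 and 4 were also the 2 highest of the 5 PBS mice for 7 of the 14 heat-inducible members, Hspa1a, Dnajb1 and Dnajb4 among them. They were not for the other 7, and PBS replicate 5 was highest for 3, Hsph1, Hspa4l and Hspb1. Without them, a choice made after the data were seen, 1 member, Dnajc12, was called in PBS against Ctrl (log2 fold change -0.62, adjusted p = 0.00679, edgeR) and 209 of all genes were called, against 772. The log2 fold change of Hspa1a was then 1.33 (adjusted p = 0.127), of Dnajb1 0.66 (adjusted p = 0.102), of Dnajb4 0.57 (adjusted p = 0.0596) and of Hsph1 0.92 (adjusted p = 0.102). In FLX against PBS the values of Hspa1a, Dnajb1 and Dnajb4 then turned positive, at 0.46, 0.23 and 0.26, and none was called. PBS replicates 1 and 4 were the 2 highest PBS mice for these genes, so a lower PBS mean without them was built in. The direction of these shifts therefore tests nothing.

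FLX mice had 47.6 to 61.5 FPKM of the immediate early genes, below the Ctrl median of 75.6, and their Hspa1a and Dnajb1 lay above every Ctrl mouse. The plot of both chaperones against the immediate early genes shows these FLX mice above the Ctrl mice and left of PBS replicates 1 and 4. Other lists moved with the PBS group: 8 neutrophil genes summed to 6.76 to 26.1 FPKM in the 5 PBS mice against 1.44 to 3.42 in Ctrl and 0.281 to 4.96 in FLX mice, and 6 tubule injury genes to 134 to 172 FPKM against 64.4 to 111 in Ctrl and 90.1 to 161 in FLX mice. Their part in the chaperone values was not tested. The FLX mice split by depth, and the 2 deeper ones alone gave a log2 fold change of 1.79 for Hspa1a in FLX against Ctrl, the 4 shallower ones 1.78. Neither was called (adjusted p = 0.289 and 0.0604).

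Fat transcripts stood apart in PBS replicate 5 and FLX replicate 5. Over 6 white fat genes they had 1108 and 1282 FPKM against 14.1 to 219 in Ctrl mice, and over 7 brown fat genes 801 and 412 FPKM against 24.5 to 105. On the log2 scale, the median of the brown fat list was 3.08 in PBS against Ctrl with 1 gene called, and 2.23 in FLX against Ctrl with none called. FLX replicate 5 was the highest FLX mouse for 13 of the 14 heat-inducible members. Both mice were then left out, a choice made after the data were seen. In PBS against Ctrl Hspa1a (log2 fold change 2.13, adjusted p = 0.0112, edgeR) and Dnajb1 (1.70, adjusted p = 0.00446) were still called. In FLX against Ctrl 1 member was called, Dnajc12 (-0.48, adjusted p = 0.0199), where fewer of all genes were called too, as given below. Hspa1a was at 1.64 (adjusted p = 0.0545) and Hsph1 at 0.75 (adjusted p = 0.0645). Hspb1 then had 0.63 in PBS against Ctrl (adjusted p = 0.258).

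**Figure D5:**
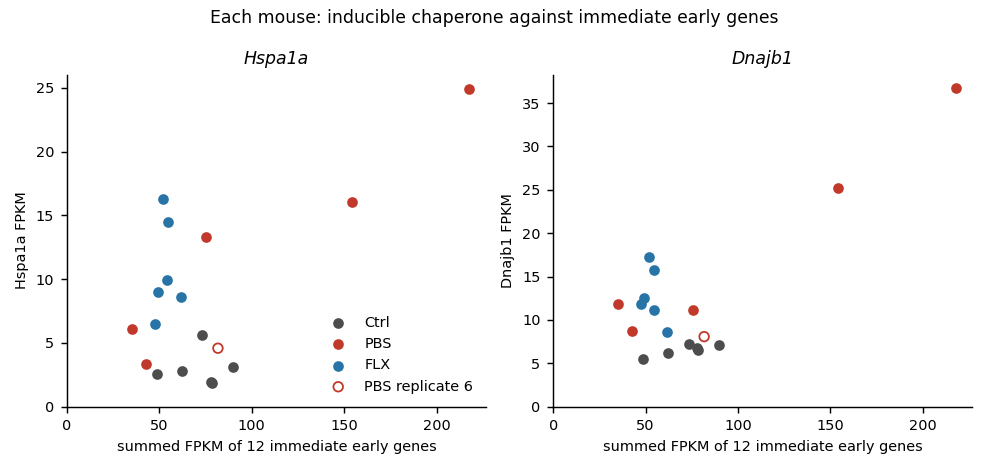
FPKM of Hspa1a (left) and Dnajb1 (right) against the summed FPKM of 12 immediate early genes, 1 point per mouse, by group, with PBS replicate 6 as an open circle. PBS replicates 1 and 4 lie far right at 218 and 154 FPKM, and the 6 FLX mice lie between 47.6 and 61.5 FPKM with higher chaperone levels than the Ctrl mice.

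Members of 4 pairs were compared across the 17 mice after the group means had been subtracted, on log2(FPKM + 0.1), with permutation p values adjusted over the 4 pairs. Hspa1a and Hspa1b moved together, with Pearson's r = 0.960 (raw p = 1e-05, the smallest that 100000 permutations can give, adjusted p = 2e-05) and Spearman's rho = 0.924 (p = 2e-05, adjusted p = 4e-05). Without the 2 mice farthest from the median of Hspa1a, r was 0.941. The division of reads between their near-identical sequences is uncertain, as given above. Hspa5 and Hsp90b1, the endoplasmic reticulum pair, had r = 0.943 (p = 1e-05, adjusted p = 2e-05) and rho = 0.941 (p = 1e-05, adjusted p = 4e-05), and r = 0.923 without the 2 farthest mice. Hsph1 and Hsp90aa1 had r = 0.448 (p = 0.112, adjusted p = 0.149) and rho = 0.615 (p = 0.0161, adjusted p = 0.0215), with r = 0.425 without the 2 farthest mice.
Hspd1 and Hspe1, which start next to each other on opposite strands, had r = -0.225 (p = 0.51, adjusted p = 0.51) and rho = -0.076 (p = 0.797, adjusted p = 0.797). Without the 2 mice farthest from the median of Hspd1, both of the Ctrl group, r was 0.0323.

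Genes that work with the members were read from lists of the wider pathway. Of the heat shock factors, 4 of 5 were tested. Hsf1, which drives the cytosolic response, had 2.64 ± 0.210 FPKM in Ctrl mice (SD, n = 6), 3.04 ± 0.205 in PBS (n = 5) and 3.40 ± 0.211 in FLX mice (n = 6), and was called in FLX against Ctrl (log2 fold change 0.28, adjusted p = 0.0439, edgeR; 0.117 with all 6 PBS mice) and not in PBS against Ctrl (0.21, adjusted p = 0.151). Hsf2, Hsf4 and Hsf5 were not called, and Hsf1 activity is mostly set on the protein, which was not measured.

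Of 25 co-chaperones of HSP70 and HSP90, 4 were higher in PBS against Ctrl and 2 in FLX against Ctrl, where 2.14% and 2.08% of all genes were. Fkbp5, an HSP90 partner that glucocorticoids induce, rose from 4.68 ± 0.937 to 10.9 ± 3.39 FPKM in PBS mice (log2 fold change 1.23, adjusted p = 0.0024, edgeR). Bag3, an exchange factor that links HSP70 to autophagy, rose from 6.44 ± 1.06 FPKM to 9.81 ± 2.07 in PBS (0.62, adjusted p = 0.0143) and 11.3 ± 1.497 in FLX mice (0.73, adjusted p = 0.006). Cdc37l1 rose in both comparisons with Ctrl (0.62 and 0.39), and Unc45a, a chaperone of myosin, rose in PBS against Ctrl (0.33). None of the 14 subunits of the TRiC chaperonin and prefoldin, which fold actin and tubulin, was called in any comparison, and neither alpha-crystallin was.

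Among 20 genes of the unfolded protein response and folding in the endoplasmic reticulum, Herpud1, a part of the degradation machinery, rose from 77.6 ± 3.19 FPKM in Ctrl to 131 ± 13.1 in PBS mice (0.76, adjusted p = 0.000432, edgeR) and was lower in FLX than in PBS mice (-0.63, adjusted p = 0.0067), at 90.2 ± 12.8 FPKM. Syvn1, the ligase of the same machinery, rose in FLX against Ctrl (0.49, adjusted p = 0.0256), and the other 18 were not called. Among 10 mitochondrial folding and protease genes, Grpel2, an exchange factor of mitochondrial HSP70, was lower in both comparisons with Ctrl (-0.44 and -0.48). Hscb, a J protein of iron-sulphur cluster assembly, was lower in FLX against Ctrl (-0.53), and Clpx, an unfoldase, was higher in FLX against PBS (0.46, adjusted p = 0.0326, or 0.0844 with all 6 PBS mice). Of all tested genes, 3.81% were called in PBS against Ctrl, 0.726% in FLX against PBS and 3.67% in FLX against Ctrl.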

How the data were processed

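Poly(A) RNA of 18 right kidneys was sequenced in read pairs. According to the study's methods fastp trimming and HISAT-3N alignment to GRCm38 came before StringTie, with which the authors obtained FPKM. The submitters' processing notes list cutadapt 1.9, HISAT2 2.0.4, UMI-tools and StringTie 1.3.4d instead. Per gene and mouse, the deposited table gives FPKM and estimated counts. Neither the counting tool nor its use of strand or molecular identifiers is given in the sources used here. As deposited, the estimated counts are whole numbers with more genes at 4 counts (median 720 per mouse) than at 3 (484.5) or 5 (268), and were used as they stand.

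Counts were compared with edgeR 4.0.16 (R 4.3.3): TMM scaling, filterByExpr by group, glmQLFit and glmQLFTest over 17 mice in 1 model, two-sided, Benjamini-Hochberg over 20251 genes (19946 with all 6 PBS mice). The script was also run on simulated counts with known changes in genes drawn at random. These counts had no mice made to stand apart, and no result given here rests on them. Single genes were tested on log2(FPKM + 0.1) by an exact two-sided permutation test of the mean difference, whose smallest p is 0.00216. DESeq2 1.42.0 and limma 3.58.1 on log2 FPKM were alternatives. Intervals are 95%. A replicate is 1 mouse, and p values measure the spread between these mice.

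Genes named are those called in any comparison, the 5 highest and 5 lowest fold changes, the heat-inducible, endoplasmic reticulum and mitochondrial lists and the 10 highest Ctrl levels, some by range only. The members and lists were chosen with earlier results of these data known. Promoters came from RefSeq (GRCm38.p6), where 56 of 71 members matched by symbol. A gene of the kidney epithelial list is not reported here.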

Additional observations from a re-analysis of the deposited data

Results flagged for a closer look

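In 10 of the 123 groups of a named member with 4 to 6 mice, 1 mouse lay far from the others by Dixon's gap test, where chance gives about 1 in 20. Ctrl replicate 3 accounted for 4 of them. It had 2.23 FPKM of Dnajb14 against 1.44 to 1.61 in the other Ctrl mice and 6.70 of Dnajc2 against 4.44 to 5.15. It had 4.10 of Dnajc11 against 4.38 to 4.55 and 5.74 of Dnajc15 against 9.61 to 12.2. Ctrl replicate 6 had 19.0 FPKM of Dnaja1 against 25.4 to 30.0.

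FLX replicate 5 had 10.1 FPKM of Hspb8 against 2.84 to 4.17 in the other FLX mice and 2.17 of Hspa12b, an endothelial HSP70 relative, against 1.44 to 1.67. FLX replicate 2 had 42.8 FPKM of Dnajc22 against 39.7 to 40.4, and FLX replicate 3 had 17.8 of Hspa4 against 22.01 to 24.9. PBS replicate 3 had 10.2 FPKM of Hsph1 against 20.5 to 24.2 in the other 4 PBS mice, and it was also the lowest of these 5 for Hspa1a, Hspa1b, Dnajb1 and Dnajb4. No cause was tested.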

How the results depend on the processing

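No fold change called with 5 or 6 PBS mice changed sign under any alternative. Of their values, 435 kept their side of the threshold, 140 lost the call and 1 gained it, and 49 values of members not called passed it. The members called in PBS against Ctrl (9), FLX against PBS (0) and FLX against Ctrl (8) became 1, 0 and 8 with PBS replicates 2, 3 and 5 only, a choice made after the data were seen. In FLX against PBS DESeq2 called 1. In FLX against Ctrl the number was 3 with all 6 PBS mice, 0 with FLX replicates 1 and 2 only, 1 with FLX replicates 3 to 6 only (chosen after the data were seen), 1 without PBS and FLX replicate 5 (likewise), 4 without a filter on low counts and 13 by limma on log2(FPKM + 0.1), + 1 or + 0.01. By the unadjusted rule 3 members passed in PBS against Ctrl by limma at each pseudocount and 3 with PBS replicates 2, 3 and 5 only, and 1 passed in FLX against PBS with all 6 PBS mice. With 1 mouse left out, members called went from 6 to 13, stayed at 0 and went from 1 to 18 in the order above. In FLX against Ctrl 1 was left without Ctrl replicate 2, Ctrl replicate 5 or FLX replicate 5, 3 without Ctrl replicate 1, Ctrl replicate 6 or FLX replicate 1, 5 without FLX replicate 2, 4 or 6, and 18 without Ctrl replicate 3. In PBS against Ctrl Hspa1a, Hspa1b, Dnajb1, Dnajb4, Hsph1 and Dnajc12 were called in 17 of 17 such fits, and in FLX against Ctrl Dnajc12 was. The cause of these shifts was not tested.

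Of all genes, 772 were called in PBS against Ctrl, and 496 with only the 2 groups compared, 1483 by DESeq2, 209 with PBS replicates 2, 3 and 5 only and 388 to 1662 with 1 mouse left out. In FLX against PBS 147 were called, and 95 with only the 2 groups, 0 with FLX replicates 1 and 2 only, 38 with FLX replicates 3 to 6 only, 35 with PBS replicates 2, 3 and 5 only, 88 without a filter, 513 by DESeq2, 255, 242 and 244 by limma at pseudocounts of 0.1, 1 and 0.01, and 47 to 250 with 1 mouse left out. In FLX against Ctrl 744 were called, and 354 with all 6 PBS mice, 4 and 179 with FLX replicates 1 and 2 or 3 to 6 only, 350 without PBS and FLX replicate 5, 378 without a filter, 1653 by DESeq2, 1214, 1197 and 1165 by limma, and 271 to 3099 with 1 mouse left out. The correlation of Hsph1 with Hsp90aa1 was 0.583 over all 18 mice (permutation p = 0.029).

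Replicate numbers are shared between groups. Deviations of same-numbered mice correlated by -0.297 to 0.347, the highest between PBS and FLX replicate 5. In each pair of groups 1 of 6 mice matched its own number best. The labels do not say whether mice of 1 number were handled together, and these values cannot settle it. With a replicate block 7, 0 and 4 members and 419, 67 and 258 of all genes were called. With all 6 PBS mice and the block, chosen after the data were seen, 7, 0 and 1 members were called, and 48 and 99 of all genes in FLX against PBS and FLX against Ctrl.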
